A study of Mus musculus with 2 samples.

Results

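The CD300 genes encode single-pass surface receptors of myeloid cells, and 5 of them, Cd300a, Cd300lf, Cd300lb, Cd300ld and Cd300c2, were followed here among the 31053 genes of the count matrix. These members were selected on their measured UMI levels in these same libraries, from the 12 Cd300 genes in the feature list, so their levels are a description and carry no test. Cells came from the region of the cribriform plate of 10-week-old female wild-type C57BL/6J mice, in a Healthy group and in a group with experimental autoimmune encephalomyelitis (EAE), in which autoimmune inflammation of the central nervous system is induced. Each group was a pool of cells from 5 mice, sorted as podoplanin-positive, CD31-positive and CD45-negative to obtain lymphatic endothelium, and is 1 sample. The matrix joins the groups as libraries with barcode suffix 1 and 2, and the labels and files used here do not tie a suffix to healthy or EAE mice. Values are therefore given for library 1 and library 2 next to each other, without saying which one is EAE.

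CD300 receptors have a single immunoglobulin-like domain that binds lipids such as phosphatidylserine and phosphatidylethanolamine, which appear on the surface of dying cells. The family is paired. CD300A and CD300LF carry tyrosine motifs in their tails that recruit phosphatases such as SHP-1 (encoded by Ptpn6) and dampen activation, whereas CD300LB, CD300LD and the product of Cd300c2 have short tails and signal through the adaptors DAP12 (Tyrobp) or the Fc receptor gamma chain (Fcer1g). In the brain such receptors are known from microglia, the resident macrophages, and they take part in the uptake of dead cells and the restraint of inflammation.

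All 5 members lie on mouse chromosome 11. The 120 bases upstream of the annotated start of the 3 members with most UMIs (unique molecular identifiers, each standing for 1 captured transcript) are shown because these 3 carry nearly all UMIs of the family and each stood differently between the libraries, Cd300lf being far higher in library 2, Cd300a lower and Cd300c2 close to level. They are RefSeq sequences on GRCm38.p6, written 5′ to 3′ along the gene, with capitals marking GAGGAA or its reverse complement TTCCTC, the core letters of a site for ETS factors such as PU.1, a master regulator of myeloid genes.
Cd300lf, chr11:115133993-115134112, minus strand: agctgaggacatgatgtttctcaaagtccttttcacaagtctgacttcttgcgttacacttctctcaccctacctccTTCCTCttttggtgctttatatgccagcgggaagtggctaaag
Cd300a, chr11:114889921-114890040, plus strand: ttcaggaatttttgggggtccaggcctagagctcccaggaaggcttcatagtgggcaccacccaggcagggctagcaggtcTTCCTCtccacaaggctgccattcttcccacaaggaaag
Cd300c2, chr11:115001881-115002000, minus strand: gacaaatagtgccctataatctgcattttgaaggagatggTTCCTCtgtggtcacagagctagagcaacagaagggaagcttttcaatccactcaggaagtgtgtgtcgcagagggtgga

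Promoter windows for all 5 members were in the RefSeq table, each reaching from 250 bases before to 50 after the start. The GAGGAA core, searched on both strands, was present in the windows of Cd300lf, Cd300a, Cd300c2 and Cd300ld and not in that of Cd300lb, and 28.1% of 32544 distinct windows of all genes hold it. The longer form GAGGAAGT, which contains the core, lay at bases 1 to 8 after the start of Cd300lf and at bases -143 to -136 of Cd300ld, and 3.11% of all windows hold it. The interferon-stimulated response element, searched as GAAA, any 2 bases and GAAA, matched in the window of Cd300c2 at bases 12 to 21 after the start, and in 3.45% of all windows. It did not match in the windows of Cd300lf, Cd300a, Cd300lb and Cd300ld. The gamma-activated site, searched as TTC, any 3 bases and GAA, matched in no member's window and in 8.33% of all windows. These matches describe letters only, and a window without a match says nothing of sites elsewhere.

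Library 1 held 3406 cells and library 2 held 1922 cells that showed 200 genes or more and no more than 20% mitochondrial UMIs, at a median of 7334 and 9782.5 UMIs per cell. The libraries shared 8 barcode sequences, 7 of them kept in both. Cells were clustered without the Cd300 genes, and 3094 cells of library 1 and 1717 of library 2 were microglia-like by their markers. No cluster was named lymphatic endothelium, the labelled cell type. Its markers Prox1, Flt4, Mmrn1, Ccl21a, Pdpn and Reln together had 360 and 116 UMIs in the microglia-like cells. They were highest in the 88 cells of library 1 in cluster 7, a cluster of mixed markers, at 840 CPM (UMIs scaled to a total of 1000000). Of the 6 lymphatic markers only Ccl21a was among the 50 genes that stood highest in cluster 7 over the other cells. Those 88 cells also held erythroid genes at 20066 CPM, microglia markers at 9962 CPM and blood endothelium markers at 1744 CPM. In the 103 cells of library 2 in this cluster, erythroid genes stood at 0 CPM and fibroblast or bone genes at 9084 CPM. In microglia-like cells the 7 microglia markers stood at 18138 and 9603 CPM in library 1 and library 2. The results below are therefore about CD300 genes in microglia-like cells, and intervals are exact 95% intervals that cover counting error only, since each side is 1 library. In the same cells, the sum of 12 early stress genes was 48549 and 17381 CPM, and that of 12 type I interferon response genes 391 and 3495 CPM. Markers of other cell types also differed in these cells: 6 monocyte markers summed to 4.34 and 78.4 CPM, 7 dendritic cell markers to 298 and 39.7 CPM, 6 astrocyte markers to 104 and 273 CPM and 5 division markers to 44.3 and 152 CPM. Of the 7 dendritic cell markers, 2 had 0 UMIs in library 1. Only Fscn1 of them was among the 50 genes that stood highest over the other cells in a microglia-like cluster. Of the 6 monocyte markers only Plac8 was, in cluster 15, which was held mostly by library 2. No microglia marker was among those 50 genes in clusters 12 to 16, all held mostly by library 2, nor in cluster 3 of library 1. These clusters took the name by having 6 or 7 of the 7 microglia markers at 100 CPM or above. Over all kept cells the median share of mitochondrial UMIs was 1.54% and 3.74%. The part of these differences in the CD300 levels was not tested.

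Cd300lf and Cd300a encode the inhibitory members. Cd300lf (ENSMUSG00000047798), a receptor for phosphatidylserine and ceramide, was almost silent in library 1 and widely detected in library 2. Microglia-like cells held 46 UMIs of it in library 1 (1.92 CPM; upper end of the interval 2.56 CPM) and 3005 UMIs in library 2 (161 CPM; upper end 166 CPM). That is an 83.7-fold difference (62.6 to 115). With 10 CPM added to both sides, its log2 ratio of library 2 over library 1 was 3.84. Of the 12361 genes with at least 20 UMIs, 10 had a higher log2 ratio on that scale. A UMI of Cd300lf was found in 43 of 3094 cells of library 1 (1.39%; 1.01% to 1.87%) and in 1255 of 1717 cells of library 2 (73.1%; 70.9% to 75.2%). With every cell thinned to 1000 UMIs, which removes the difference in depth, the shares were 0.259% and 13.8%. Olfactory sensory neuron-like cells, which should lack the gene, held 0 UMIs of it in 37 cells of library 2 at a median of 11227 UMIs per cell, a count of 0 that allows a share of up to 8.11% (3 counts; exact upper end 9.49%). The share of 73.1% in microglia-like cells of library 2 lay above that limit. Library 1 had only 7 such neuron-like cells, too few for the same comparison. The part of free RNA in these counts was not tested.

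Cd300a (ENSMUSG00000034652), the other inhibitory receptor, was lower in library 2. Microglia-like cells held 5743 UMIs in library 1 (239.7 CPM) and 2262 in library 2 (121 CPM), which is 1.98-fold (1.89 to 2.08) higher in library 1. It had a UMI in 81.2% of the cells of library 1 and in 63.8% of those of library 2, and in 20.7% and 11.3% after thinning to 1000 UMIs. In the sensory neuron-like cells of library 2 it had a UMI in 2 of 37 cells (5.41%; 0.661% to 18.2%). Cd300a and Cd300lf added together stood at 242 and 282 CPM in library 1 and library 2. The inhibitory pair thus differed 1.17-fold (1.12 to 1.21) in its sum, while its makeup differed: nearly all of its UMIs in library 1 were those of Cd300a, and the larger part in library 2 were those of Cd300lf.

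The adaptor-coupled members were led by Cd300c2 (ENSMUSG00000044811), whose product signals through DAP12 and the Fc receptor gamma chain. It was detected in nearly every microglia-like cell, 97.9% in library 1 and 99.0% in library 2, at 688 and 670 CPM from 16482 and 12539 UMIs. Its log2 ratio of library 2 over library 1, with 10 CPM added to both sides, was -0.04, and it turned to 0.09 with the totals taken without mitochondrial, haemoglobin and ribosomal protein genes. After thinning to 1000 UMIs the shares of cells with a UMI were 48.4% and 48.3%. In the sensory neuron-like cells of library 2 it had 0 UMIs in 37 cells.

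The other adaptor-coupled members were rare. Cd300lb (ENSMUSG00000063193), a DAP12-coupled receptor, had 45 UMIs in 30 microglia-like cells of library 1 (1.88 CPM) and 0 UMIs in library 2, which puts library 1 at least 11.7-fold higher against 3 counts in these cells of library 2, with an exact interval that begins at 9.14-fold. Over all kept cells the counts were 46 and 1, a 36.2-fold difference with a counting interval of 6.18 to 1461. Its UMIs were unevenly spread: of the 31 kept cells of library 1 with any, 25 held 1 and 1 cell held 7. Cd300ld (ENSMUSG00000034641), coupled to the Fc receptor gamma chain, had 43 UMIs in microglia-like cells of library 1 (1.79 CPM) and 17 in library 2 (0.909 CPM), 1.98-fold (1.10 to 3.69) higher in library 1. Its shares after thinning, 0.291% and 0.117%, are too near 1 UMI to order.

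Of the 5 members, 1 was at least 2-fold higher in library 2 by the log2 ratio with 10 CPM added, beside 2.86% of the 12361 genes measured in microglia-like cells, and 0 were at least 2-fold lower, beside 2.24%. Cd300a, with a log2 ratio of -0.93, lay just inside that limit, and 332 of the 12361 genes had a lower ratio. With totals taken without mitochondrial, haemoglobin and ribosomal protein genes, the log2 ratio of Cd300a was -0.82. The added 10 CPM hides the low members: with 1 CPM added, Cd300lb passed the limit at -1.53. Over all kept cells the counts were the same, 1 and 0, beside 2.76% and 1.92% of 13891 genes, and Cd300a stood at -0.97. The rule for the members used these levels, so nothing is read from the shares.

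**Figure D1:**
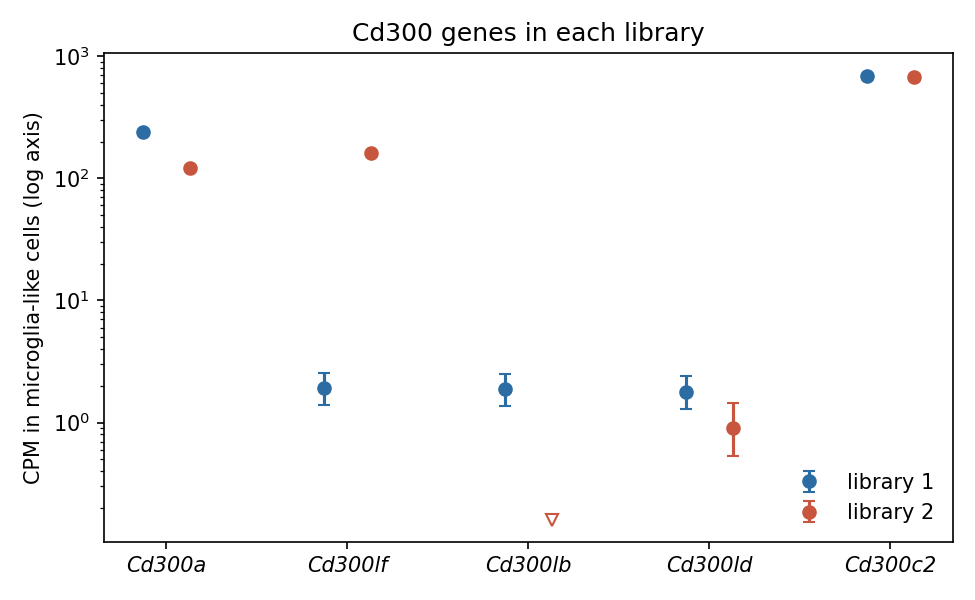
Summed level of each member in microglia-like cells of library 1 (blue) and library 2 (red), in CPM on a log axis, with exact 95% Poisson intervals. The open triangle marks the level that 3 counts would give for Cd300lb in library 2, where none was found; Cd300lf stands at 1.92 and 161 CPM and Cd300c2 at 688 and 670 CPM.

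The difference in Cd300lf was spread over many cells and did not come from a few. In library 2, 32.4% of all kept cells held no UMI of it, 25.7% held 1, 18.5% held 2, 10.8% held 3 and 6.30% held 5 or more. In library 1, 98.6% held none, 44 cells held 1, 4 held 2 and 1 cell held 6. Cd300a was absent from 22.8% of kept cells of library 1 and from 40.5% of those of library 2, although cells of library 2 were deeper. For Cd300c2, 51.2% and 69.5% of cells held 5 or more UMIs, an order that follows the depth and not its CPM.

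**Figure D2:**
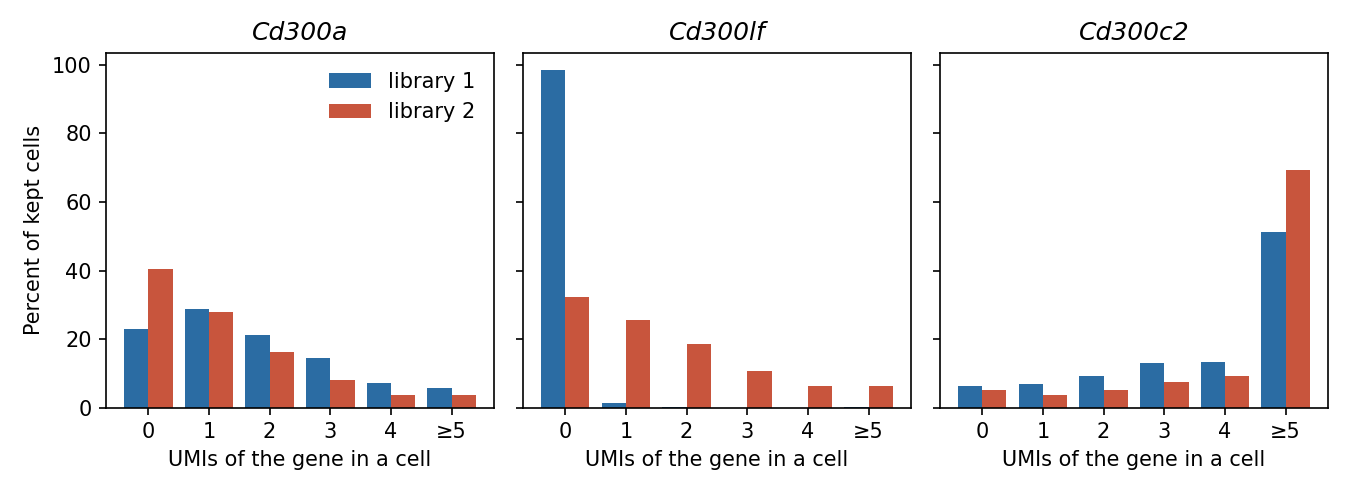
Percent of kept cells by the number of UMIs of Cd300a, Cd300lf and Cd300c2 that a cell held, in library 1 (blue) and library 2 (red). For Cd300lf 98.6% of cells of library 1 stand at 0, against 32.4% of those of library 2, whose bars extend to 5 or more.

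Within a cell of library 2, Cd300a, Cd300lf and Cd300c2 were detected almost independently of each other. In microglia-like cells of library 2 thinned to 3000 UMIs, Cd300a was detected in 29.2% and Cd300lf in 35.7%. They were found together in 10.3% of the 1705 cells, where the product of their shares is 10.4%. Cd300lf was detected in 35.1% of the cells with Cd300a and in 36.0% of those without. The members that differ in opposite directions between the libraries were thus not split between separate cells of library 2. Cd300c2 was found in 88.4% of the cells with Cd300a and in 83.4% of those without, and in 83.6% and 85.6% of the cells with and without Cd300lf. In library 1, thinned alike, Cd300c2 was found in 86.8% of the cells with Cd300a and in 84.3% of those without. All other pairs of members had too few cells with a UMI to compare. The values that follow are for library 2. Across cells, Pearson's r of log counts was 0.01 for Cd300a with Cd300lf, 0.09 for Cd300a with Cd300c2 and -0.03 for Cd300lf with Cd300c2, over cells of 1 library at equal depth.

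Cd300lf was present throughout the microglia-like clusters of library 2. The 5 such clusters with at least 50 cells of library 2 ran from 126 CPM in cluster 14, led by the division genes Mki67 and Top2a, to 196 CPM (182 to 211) in cluster 13, led by the chemokine gene Cxcl9 and the itaconate synthase gene Acod1. Between them lay cluster 16, led by C4b and Apoe, at 133 CPM, cluster 12, led by C4b and class II genes, at 154 CPM, and cluster 15, led by interferon-induced genes such as Ifit3 and Iigp1, at 162 CPM. Cluster 13 stood above cluster 15 (151 to 173 CPM) beyond counting error, whereas neighbours lower in the order had intervals that overlapped. In the 5 clusters of library 1 the gene lay between 0.927 and 2.50 CPM, from 4 to 11 UMIs each. Each microglia-like cluster was held mostly by 1 library, so cluster and library cannot be told apart in these values.

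Cd300a had another order. In library 1 it was highest in cluster 1, led by heat shock genes, at 272 CPM (259 to 285), and lowest in cluster 4, led by Klf4 and Dnajb1, at 215 CPM (198 to 232). In library 2 it ran from 64.6 CPM (51.1 to 80.6) in the dividing cluster 14, through 105 CPM in cluster 13, 124 in cluster 15 and 131 in cluster 12, to 145 CPM (126 to 167) in cluster 16. Every cluster of library 2 stood below every cluster of library 1. Neighbours in the order of clusters 13, 15, 12 and 16 had intervals that overlapped, and only cluster 14 stood apart from its neighbour.

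Cd300c2 did not divide the libraries. In library 2 it ranged from 392 CPM in the dividing cluster 14 and 517 CPM in cluster 13 to 869 CPM in cluster 16, a 2.22-fold span, and in library 1 from 611 CPM in cluster 3, led by Gadd45b and Il1a, to 763 CPM in cluster 0. The range of library 1 thus fell inside that of library 2. In the dividing cluster all of Cd300a, Cd300lf and Cd300c2 were at their lowest among the clusters of library 2. Cd300lb was found in all 5 clusters of library 1, with 16 of its 45 UMIs in cluster 2, led by Gdf15 and Ccl4, and in none of library 2.

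**Figure D3:**
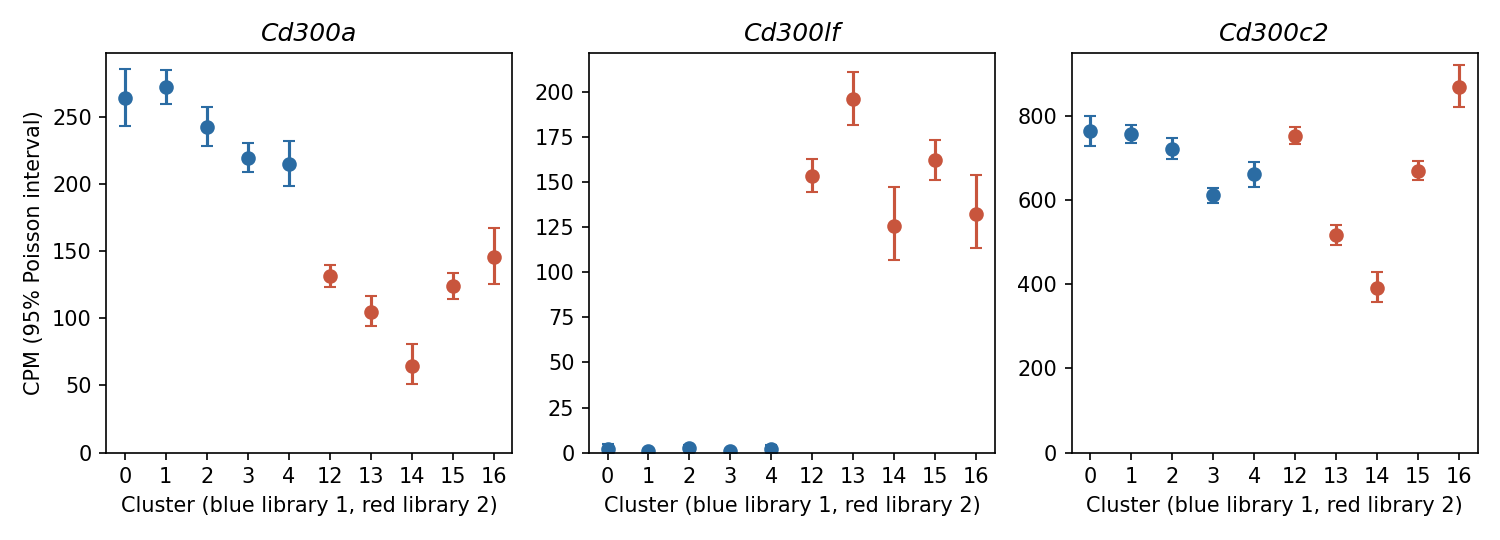
Level of Cd300a, Cd300lf and Cd300c2 in each microglia-like cluster with at least 50 cells of a library, in CPM from 0, with exact 95% Poisson intervals. Clusters 0 to 4 are cells of library 1 (blue) and clusters 12 to 16 cells of library 2 (red); Cd300lf lies between 126 and 196 CPM in the red clusters and at 2.50 CPM or less in the blue ones.

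A small set of library 1 cells lay in the clusters that belonged mostly to library 2. These 37 cells, at a median of 12100 UMIs, held 12 UMIs of Cd300lf (22.5 CPM; 11.6 to 39.3), and 11 of them had at least 1. The other 3057 microglia-like cells of library 1 held 34 UMIs (1.45 CPM; 1.01 to 2.03). The 37 cells thus stood above their own library and below the 161 CPM of library 2. Their Cd300a level was 146 CPM (116 to 182), against 242 CPM in the rest of library 1. Their interferon response genes summed to 2939 CPM, against 333 CPM in the rest, their class II genes to 4175 and 1002 CPM, and their microglia markers to 12193 and 18273 CPM. Of the 37 cells, 21 lay in the dividing cluster 14, with interferon response genes at 1522 CPM, class II genes at 1644 CPM and Cd300a at 132 CPM. The 7 cells in cluster 13 had these lists at 6003 and 11336 CPM. None of the 37 barcodes was shared with library 2. This group was picked out after its values had been seen. The clustering left out the listed genes but not other interferon-induced genes, such as Iigp1 and Gbp8, which were among the leading genes of clusters 15 and 12. Placement in these clusters is thus not independent of the list sums, which carry no test.

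Within library 1, cells with and without a Cd300lf UMI can be compared in the same lists, and 11 of those with one are among the 37 cells above. The 43 microglia-like cells with one had interferon response genes at 2044 CPM and class II genes at 4206 CPM. The 3051 cells without had 356 and 1006 CPM. Microglia markers stood at 13765 and 18230 CPM and early stress genes at 36991 and 48794 CPM. With the 37 cells left out, the 32 remaining cells with a UMI had interferon response genes at 665 CPM and class II genes at 2145 CPM, against 328 and 988 CPM in those without. In library 2 the cells with and without a Cd300lf UMI were close, at 3541 and 3353 CPM of interferon response genes and 16444 and 16065 CPM of class II genes. Median depths were 9227 and 7402 UMIs in library 1 and 10181 and 9382 UMIs in library 2, and deeper cells more readily show a UMI.

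The cells of each library were also ranked by the share of their UMIs from the interferon list. In library 1 Cd300lf stood at 3.95 CPM (25 UMIs) in the highest quartile and between 0.974 and 1.42 CPM (6 to 8 UMIs) in the others. Without the 37 cells the highest quartile stood at 2.32 CPM (1.27 to 3.89; 14 UMIs), an interval that overlapped those of the other quartiles. In library 2 it was nearly flat, at 165, 160, 148 and 171 CPM from the lowest quartile to the highest. Cd300a went down along the same ranking in library 2, from 141 to 131, 117 and 96.4 CPM, and differed less in library 1, from 244 to 226 CPM. Cd300c2 in library 2 went from 728 CPM in the lowest quartile to 595 CPM in the highest. The ranking also sorts clusters of library 2. The list summed to 4493 CPM in cluster 14, lowest in both genes, and to 2612 and 2682 CPM in clusters 12 and 16, highest in Cd300a. Cluster 15, at 4429 CPM of the list, lay between them in Cd300a. The part of the clusters in these declines was not tested. A quartile is a range of a continuous share and not a cell type, and 694 of the 774 cells in the lowest quartile of library 1 held no UMI of the list.

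**Figure D4:**
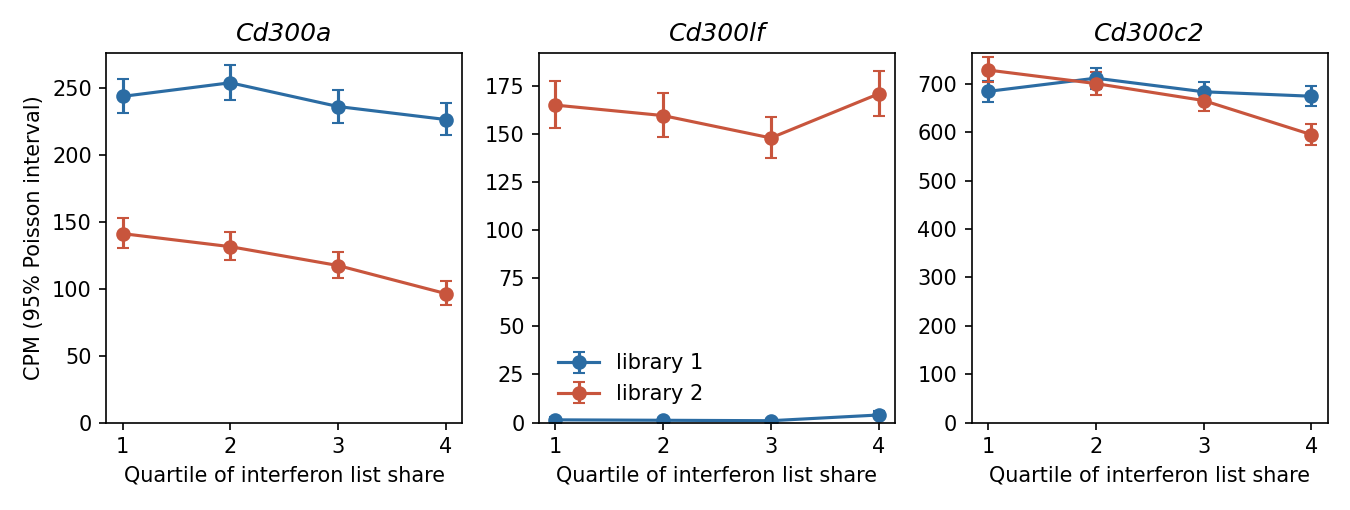
Level of Cd300a, Cd300lf and Cd300c2 in microglia-like cells ranked into quartiles by the share of UMIs from 12 interferon response genes, within library 1 (blue) and library 2 (red), in CPM with exact 95% Poisson intervals. In library 2 Cd300lf lies between 148 and 171 CPM in all quartiles, and Cd300a goes from 141 to 96.4 CPM.

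Neither class II nor early stress genes ordered Cd300lf within library 2. By quartiles of the class II list it lay between 155 and 166 CPM, although the median share of that list went from 0.246% to 3.14% of a cell's UMIs. By quartiles of the early stress list it lay between 153 and 169 CPM. In library 1 Cd300lf was at 3.41 CPM (20 UMIs) in the quartile with least early stress and at 1.33 CPM (8 UMIs) in the quartile with most, and Cd300a was at 252 and 209.7 CPM. The quartile of library 2 with most early stress had a median of 2.96% of UMIs from this list (2.40% to 8.91%). The quartile of library 1 with least had a median of 2.52% (0.0975% to 3.36%), so the 2 ranges overlap only in part. In these quartiles Cd300lf stood at 169 CPM in library 2 and 3.41 CPM in library 1, and Cd300a at 128 and 252 CPM. The part of early stress in these levels was not tested.

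Outside microglia-like cells, CD300 levels were set beside the microglia markers of the same cells. Border macrophage-like cells, with Mrc1, Ms4a7 and Pf4 leading and found only in library 1 (44 cells), held Cd300c2 at 652 CPM and Cd300a at 223 CPM, near the levels of microglia-like cells of that library. Their microglia markers summed to 10641 CPM, beside border macrophage markers at 1944 CPM. Interferon response genes stood at 1096 CPM and class II genes at 5527 CPM in them, against 391 and 1073 CPM in microglia-like cells of library 1. Their Cd300lf was 18.9 CPM (8.66 to 35.9), above the 1.92 CPM of microglia-like cells of library 1, but 6 of the 9 UMIs lay in 1 cell. The 9 cells of library 1 and 4 of library 2 in cluster 11, led by the olfactory epithelium genes Cyp2a5 and Cyp2g1, held no UMI of Cd300a, Cd300lf or Cd300c2, and their microglia markers summed to 40.2 and 55.3 CPM. Olfactory ensheathing cell-like cells of library 2 held Cd300lf at 105 CPM in 26 of 57 cells, and their cluster also held microglia markers at 6620 CPM. The mixed cluster 7 held Cd300lf at 47.7 CPM (30.2 to 71.6) in library 2, beside microglia markers at 6044 CPM, and Cd300c2 at 763 CPM (687 to 845), above the 670 CPM of microglia-like cells. Epithelium-like cluster 5 in library 1 held Cd300c2 at 448 CPM beside microglia markers at 13196 CPM. Cluster 6, with 10 cells of library 1 led by genes such as Fcer1a, Cpa3 and Gata2, had Cd300a in 5 cells and no Cd300lf.

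The 7 other Cd300 genes were close to absent. Cd300c, another adaptor-coupled receptor, had 30 UMIs in microglia-like cells of library 1 and 7 in library 2, and was the only one of the 7 with at least 20. Cd300ld3 had 8 and 3 UMIs and Cd300e 1 and 0, and Cd300ld2, Cd300ld4 and Cd300ld5 had none in either library. Transcripts of Cd300ld3, Cd300ld4 and Cd300ld5 share 84.1%, 96.2% and 100% of their 31-base words with another gene in GENCODE M21, so their counts are uncertain. Cd300lg, the family member of endothelium, had 2 UMIs in all kept cells of library 1 and 0 in library 2, where 3 counts would give 0.148 CPM.

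For the members themselves the sharing was small. Of the 31-base words of their transcripts, 7.51% for Cd300a, 4.33% for Cd300lf, 6.56% for Cd300ld, 12.3% for Cd300c2 and 0% for Cd300lb occur in another gene. Cd300lf lies inside the span of Rab37, which is on the opposite strand, and whether the counting used strand is not given in the sources used here. Rab37 had 3 and 27 UMIs in microglia-like cells of library 1 and library 2, against 46 and 3005 of Cd300lf. Cd300lb overlaps the pseudogene Gm11699 on the opposite strand.

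The partners through which CD300 receptors signal were all measured. Of these 10 genes none was 2-fold higher or lower in library 2, beside the 2.86% and 2.24% of all genes, so the count does not set them apart. Their median log2 ratio was -0.06, beside -0.00390 over all genes. Tyrobp, the DAP12 adaptor, stood at 2475 CPM in library 1 and 2163 CPM in library 2, and Fcer1g, the Fc receptor gamma chain, at 2199 and 2699 CPM. Ptpn6, the phosphatase SHP-1 of the inhibitory tails, was 1.42-fold (1.36 to 1.48) higher in library 2, at 165 and 235 CPM, and Pik3r1, a subunit of PI3-kinase, stood at 227 and 311 CPM. The adaptor gene Grb2 stood at 227 and 162 CPM and the kinase gene Lyn at 511 and 401 CPM. Ptprc, which encodes the CD45 protein the sort was meant to leave out, stood at 305 and 246 CPM in the same cells.

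Among 12 other phosphatidylserine receptors and bridging molecules, 8 were measured and 1 was at least 2-fold higher in library 2 and none as much lower, beside 2.86% and 2.24% of all genes. The median log2 ratio of the list was -0.17. The higher gene was Axl, a receptor kinase that binds phosphatidylserine through GAS6, at 12.7 and 213 CPM (16.7-fold). Its relative Mertk stood at 345 and 359 CPM, the ligand gene Gas6 at 198 and 139 CPM, and the lipid receptor gene Trem2 at 2765 and 1691 CPM. Timd4, a phosphatidylserine receptor of resident macrophages, had 1 and 22 UMIs, a 28.2-fold difference with a counting interval of 4.55 to 1163 that the added 10 CPM hides. Mfge8, a bridging molecule that binds phosphatidylserine, was 2.10-fold higher in library 1 by CPM, at 16.9 and 8.02 CPM, and also stayed inside the 2-fold limit with 10 CPM added.

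Of 18 other paired myeloid receptors 14 were measured, 4 were at least 2-fold higher in library 2 and none as much lower, beside the same 2.86% and 2.24%. The median log2 ratio was 0.59. Treml2 stood at 10.1 and 51.5 CPM, the inhibitory receptor genes Lilrb4a at 4.72 and 31.3 CPM and Fcgr2b at 206 and 539 CPM, and the fourth was Pirb. By CPM alone Clec4a1 (4.22-fold), Lilr4b (2.60-fold) and Pilra (2.20-fold) were also more than 2-fold higher in library 2, which the added 10 CPM hides. Sirpa, an inhibitory receptor for CD47, stood at 1042 and 554 CPM, and Lair1, an inhibitory collagen receptor, at 483 and 767 CPM, both inside the limit.

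**Figure D5:**
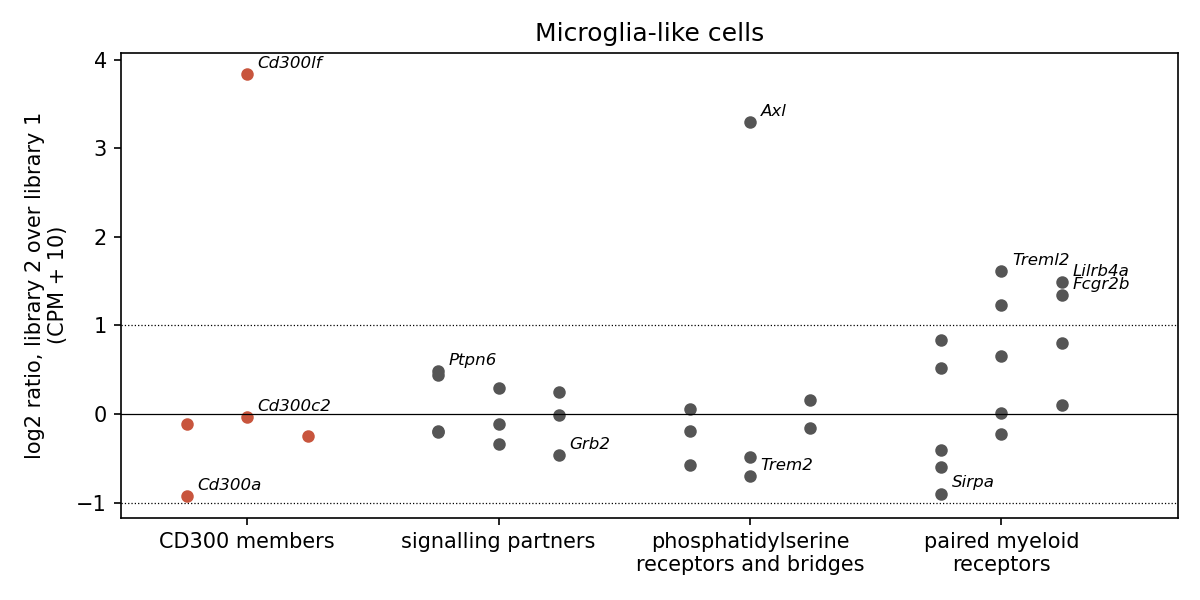
Log2 ratio of library 2 over library 1 in microglia-like cells, with 10 CPM added to both sides, for the 5 CD300 members (red) and the measured genes of 3 related lists (grey). Dotted lines mark 2-fold; Cd300lf at 3.84 and Axl stand highest, and Cd300a and Sirpa are at the lower end.

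The genes whose levels most resembled each member were sought over the 14 groups of at least 50 cells formed by cluster and library, by Pearson's r of log2 CPM among genes with at least 100 UMIs. For Cd300lf they were Gpr35 (r = 0.99), Adora1 (0.99), Eif2ak2 (0.99), Nlrc5 (0.99) and Gbp8 (0.98). For Cd300a they were Tnfrsf21 (0.98), Man1c1 (0.97), Sirpa (0.97), Rnf128 (0.96) and Chst8 (0.96). For Cd300c2 they were Clec4a3 (0.89), Ang (0.89), Clta (0.88), Rapsn (0.87) and Ly96 (0.86). Over the same groups r was -0.81 between Cd300a and Cd300lf, 0.43 between Cd300a and Cd300c2 and -0.13 between Cd300lf and Cd300c2. The groups share 2 libraries and are not independent, and the step between libraries enters the values for Cd300lf and Cd300a. Cd300lb and Cd300ld had too few UMIs for this comparison.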

How the data were processed

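Single-cell RNA libraries of 2 samples, each a pool of 5 mice, were read from 1 deposited matrix of raw UMI counts per gene and barcode, which per the file headers came from Cell Ranger 3.1.0. Also named in the submitters' processing notes are UMI-tools and bcl2fastq. The sources used here do not give the genome build, the annotation or any equalising of depth. Barcode suffixes could not be mapped to samples, so the designed comparison was replaced by a description.

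All values were computed with igraph 0.11.9, pandas 2.3.3, SciPy 1.17.1, Scanpy 1.11.5, NumPy 2.4.6 and Python 3.11.15. Scrublet called 5 of 5328 cells (0.0938%), too few to have worked, so no cell was removed and doublets may remain. Cells were clustered on 2000 variable genes, chosen without Cd300 genes and the response lists, with 30 components, 15 neighbours and Leiden resolution 1. A cluster took the marker list with at least 3 genes among its 50 highest folds, was mixed with several, and with none was microglia-like where 5 or more of 7 microglia markers were at 100 CPM or above; it stayed unnamed where another list led its 10 highest folds. This scoring was written after an earlier clustering had been seen, and division genes were not counted as a cell type. CPM are UMIs summed over cells and scaled to a total of 1000000, not corrected for transcript length; log2 ratios carry 10 CPM, and calls need 20 UMIs. Thinning to 1000 UMIs left out 87 and 15 shallower cells. Ratios were tested on simulated data.

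Members, lists and tests were chosen with earlier results of these data known. Every member is named. List examples are the 3 highest genes and the 3 with largest ratios. Pirb, Timd4, Rab37, Cd300ld3, Cd300e, Clec4a1, Lilr4b, Pilra, Fscn1 and Plac8 were named after their values were seen. Protein sequences were not used here. Of the feature identifiers, 30934 of 31053 were found in GENCODE M21.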

Additional observations from a re-analysis of the deposited data

Results flagged for a closer look

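UMIs of CD300 members also appeared in barcodes that the cell filter left out, above the 3 counts used as the limit of a count of 0. In the 432 barcodes left out of library 1 there were 4 UMIs of Cd300a and 12 of Cd300c2, and none of Cd300lf. In the 512 left out of library 2 there were 13 UMIs of Cd300a, 6 of Cd300lf and 29 of Cd300c2. Cd300c2 stood at 23.9 and 29.3 CPM in these barcodes, far under its level in kept cells.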

How the results depend on the processing

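No paired analysis was possible because each group is 1 sample and barcode suffixes are not tied to samples. No result changed direction among those with a 2-fold difference, and Cd300lf stayed at least 2-fold higher in library 2 under every alternative run. The count of members at least 2-fold lower in library 2, which is 0, became 1 over all kept cells with no cell filter and 2 with 1 CPM added, and 1 in microglia-like cells with 1 CPM added. The share of cells with any member, 58.0% and 58.3% after thinning to 1000 UMIs, was 91.2% and 89.9% at 3000 UMIs and 95.5% and 95.6% without thinning. At Leiden resolution 0.5 the highest cluster of library 2 stood at 163 CPM for Cd300lf and 125 CPM for Cd300a. Leaving out barcodes shared by the libraries, the dividing cluster, or the 37 library 1 cells in clusters of library 2 (all 3 chosen after seeing the data) changed no count of calls. At these depths Cd300lb and Cd300ld have too few UMIs to order clusters by.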
